A study of Mus musculus with 8 samples.

Results

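A set of 10 genes that respond to glucocorticoid hormones, or receive them, was followed in mouse spinal cord: Fkbp5, Tsc22d3, Sgk1, Zbtb16, Pdk4, Klf9, Cdkn1a, Ddit4, Sult1a1 and the receptor gene Nr3c1. They were found by symbol in the deposited table of raw counts, which gave 10 of 47643 genes. Ddit4 and Sult1a1 were chosen by their raised level in the homozygous libraries of the comparison made here, so their values are given as a description with no test. The remaining 8 were taken for their known response to the hormone or, for Nr3c1, as its receptor. All 10 passed the filter on low counts.

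Each of 8 C57BL/6 mice gave 1 library of spinal cord RNA. By label 4 mice are heterozygous and 4 homozygous, and the treatment named for all is tamoxifen at 100 mg/kg, injected to delete Arf1, a small GTPase of the Golgi. The mice were 2 to 10 months old, with no age, sex or hour of collection for single animals, and the labels name neither the Cre line nor the cells it acts in. The libraries held 26321522 to 37879426 expected counts. The RNA integrity number was 9 in 7 libraries and 8 in homozygous replicate 4, and ribosomal bases made up 2.44% of homozygous replicate 3 and at most 0.34% of the others. Arf1, the gene to be deleted, was at 334, 296, 322 and 303 CPM (read counts scaled to library size) in the heterozygous libraries and at 307, 22.5, 22.8 and 39.9 CPM in the homozygous ones. The library labelled homozygous replicate 1 therefore goes against its label, so the comparison was fitted with all 8 libraries and with the 7 that leave it out. All 7 Hox genes of the cord on the list used were above 0 in at least 1 library, and their summed level was 32.1 to 57.4 CPM in heterozygous and 17.8 to 45.5 CPM in homozygous libraries, lowest in homozygous replicate 2.

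Glucocorticoids, corticosterone in mice, enter cells and bind the glucocorticoid receptor, which is held ready by heat shock protein chaperones. The bound receptor moves to the nucleus, where pairs of receptors bind inverted repeats in DNA and raise or lower nearby genes. In the central nervous system its best known induced genes are read mainly in astrocytes, oligodendrocytes and the endothelium of vessels, and several of them limit the response or turn metabolism towards fasting.

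The receptor hexamer searched was AGAACA, of 6 bases, read on both strands as AGAACA or TGTTCT, in windows from 250 bases before to 50 after each RefSeq start (GRCm38.p6). The search covered 16 windows for 8 of the 10 genes. The hexamer stood in 5 of the 16 (31.25%), in windows of Sgk1, Tsc22d3 and Sult1a1, against 6233 of all 32851 windows (19.0%). By gene it stood in 3 of the 8, of which Sult1a1 was chosen as raised. Sgk1 and Tsc22d3 have several windows each, so the windows are not independent and the shares test nothing. The stricter inverted pair, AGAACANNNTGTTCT, stood in 3 of the 32851 windows (0.00913%), and 1 of these belonged to Sgk1. Both windows below run 5′ to 3′ along the gene, with hexamers in capitals. The first is shown because it holds the inverted pair and lies at chr10:21993640-21993939 on the plus strand, at a start inside the annotated Sgk1 gene. The second belongs to Sult1a1, the member with the largest difference between the groups, and lies at chr7:126676369-126676668 on the minus strand.

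Sgk1: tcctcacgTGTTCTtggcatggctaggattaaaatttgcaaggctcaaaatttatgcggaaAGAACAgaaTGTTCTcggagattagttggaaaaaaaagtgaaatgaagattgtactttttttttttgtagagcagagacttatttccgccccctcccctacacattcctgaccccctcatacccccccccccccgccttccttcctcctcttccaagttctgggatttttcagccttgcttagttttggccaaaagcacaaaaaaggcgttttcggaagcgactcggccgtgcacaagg
Sult1a1: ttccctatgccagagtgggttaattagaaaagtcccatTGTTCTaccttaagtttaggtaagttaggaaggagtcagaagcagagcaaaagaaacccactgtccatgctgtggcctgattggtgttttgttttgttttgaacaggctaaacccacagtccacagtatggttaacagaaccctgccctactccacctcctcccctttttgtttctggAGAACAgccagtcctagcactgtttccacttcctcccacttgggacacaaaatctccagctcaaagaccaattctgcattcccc

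In the Sgk1 window the hexamers began 242, 189 and 180 bases before the start, and the last 2 form the inverted pair. In the Sult1a1 window they began 212 and 34 bases before the start and form no such pair. A match of letters is a description of the window, and receptor binding was not measured. Windows of Nr3c1 and Zbtb16 were not searched, so the shares given for the members leave both genes out.

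Levels per length, which allow genes to be compared with each other, were read as TPM (scaled to library size and transcript length). In the heterozygous libraries Tsc22d3 had the highest mean at 146 ± 21.0 TPM (SD, n = 4), and Sgk1 followed at 131 ± 26.1 TPM. Tsc22d3 encodes GILZ, a leucine zipper protein with anti-inflammatory action, and Sgk1 encodes a kinase that acts on ion channels and transporters. Their ranges overlapped, and both stood above Klf9, a zinc finger transcription factor, at 79.3 ± 13.1 TPM. Ddit4, Cdkn1a, Fkbp5 and Nr3c1 followed at mean levels of 55.4, 38.2, 33.2 and 32.6 TPM, with overlap between neighbours from Klf9 down to Nr3c1. Zbtb16, Pdk4 and Sult1a1 were the lowest at 17.9 ± 3.47, 12.5 ± 2.74 and 10.7 ± 2.97 TPM, below the range of Nr3c1 and overlapping each neighbour in that order. In the homozygous libraries the mean of Sult1a1 was 26.7 ± 10.6 TPM (SD, n = 4), and it moved from last to rank 7 of 10.

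**Figure D1:**
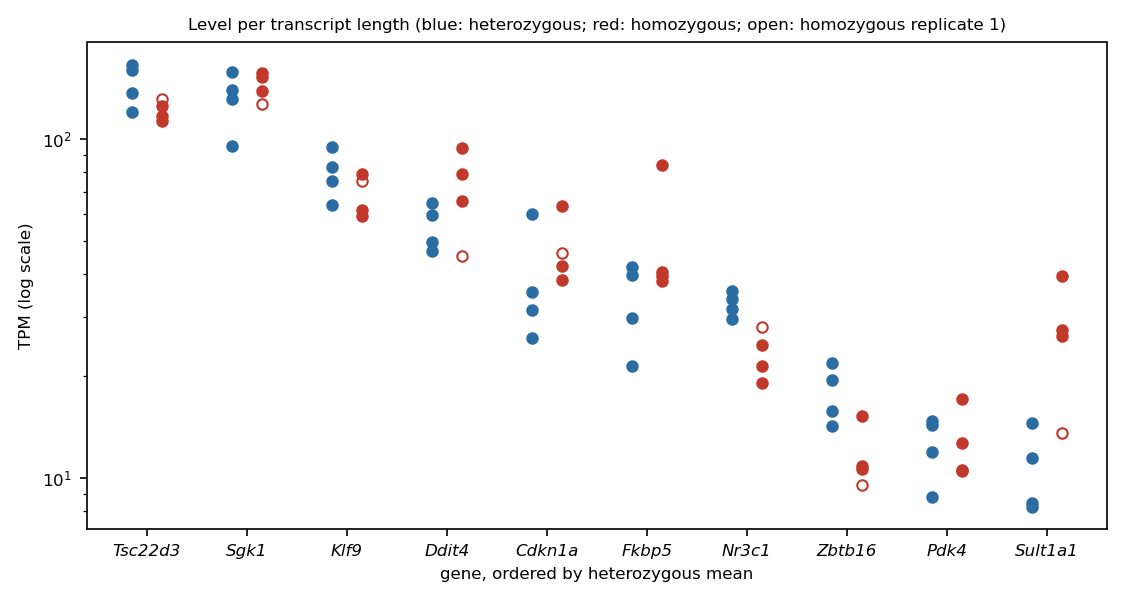
Level of each gene in TPM on a log axis, with 1 point per library (blue heterozygous, red homozygous, open circle homozygous replicate 1) and genes ordered by the heterozygous mean. Tsc22d3 and Sgk1 are the highest, and Sult1a1 moves from the lowest place to rank 7 in the homozygous libraries.

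The comparison of homozygous with heterozygous libraries asks how the 10 genes stood in cord in which Arf1 was to be deleted. In the homozygous libraries 6 of the 10 log2 fold changes were above 0, and their median was 0.28, against 0.0015 over all 16511 genes tested. Sult1a1 and Ddit4, chosen as raised, count towards both and lift each median of the 10, so these describe the set and test nothing. Of the other members, Fkbp5, Sgk1, Cdkn1a and Pdk4 lay above 0 and Tsc22d3, Klf9, Zbtb16 and Nr3c1 below it. The differences were uneven, from about 3-fold higher for Sult1a1 to lower levels of Zbtb16 and of the receptor gene Nr3c1. With 8 libraries none of the 10 passed edgeR's quasi-likelihood test at an adjusted p of 0.05, and neither did any other gene (0% higher, 0% lower). At an unadjusted p of 0.05, where 1299 genes lay above and 1470 below, Fkbp5 and Sgk1 lay above and Nr3c1 and Zbtb16 below among the 8 members not chosen as raised. DESeq2 called 1 of those 8, Nr3c1, which was lower, and it called 1.64% of all genes higher and 2.48% lower.

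Without homozygous replicate 1 the median of the 10, Sult1a1 and Ddit4 again included, was 0.38, against 0.0027 over all genes. edgeR then called 91 genes higher (0.550%) and 111 lower (0.670%). The 2 members among them were Sult1a1 and Ddit4, which were chosen for this, so nothing is read from that count. The median leaned on 2 libraries: it was 0.16 with either heterozygous replicate 2 or homozygous replicate 2 left out of the 8, and 0.20 with homozygous replicate 2 left out of the 7. On the log2(TPM + 1) scale the median of all genes shifted to -0.14 with 8 libraries and -0.17 with 7, and the median of the members was 0.088 and 0.15.

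Of the 10 genes, 2 stood above every heterozygous library in all 4 homozygous libraries, where 4.61% of all genes did, and 1 stood below, where 4.67% did. Over the 7 libraries 4 stood above and 1 below, against 9.73% and 8.81% of all genes. The members above in 8 libraries were Fkbp5 and Sult1a1, and Sgk1 and Ddit4 joined them in the 7. The member below was Nr3c1 in both. Since Sult1a1 and Ddit4 were chosen as raised, these shares describe the set and test nothing.

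**Figure D2:**
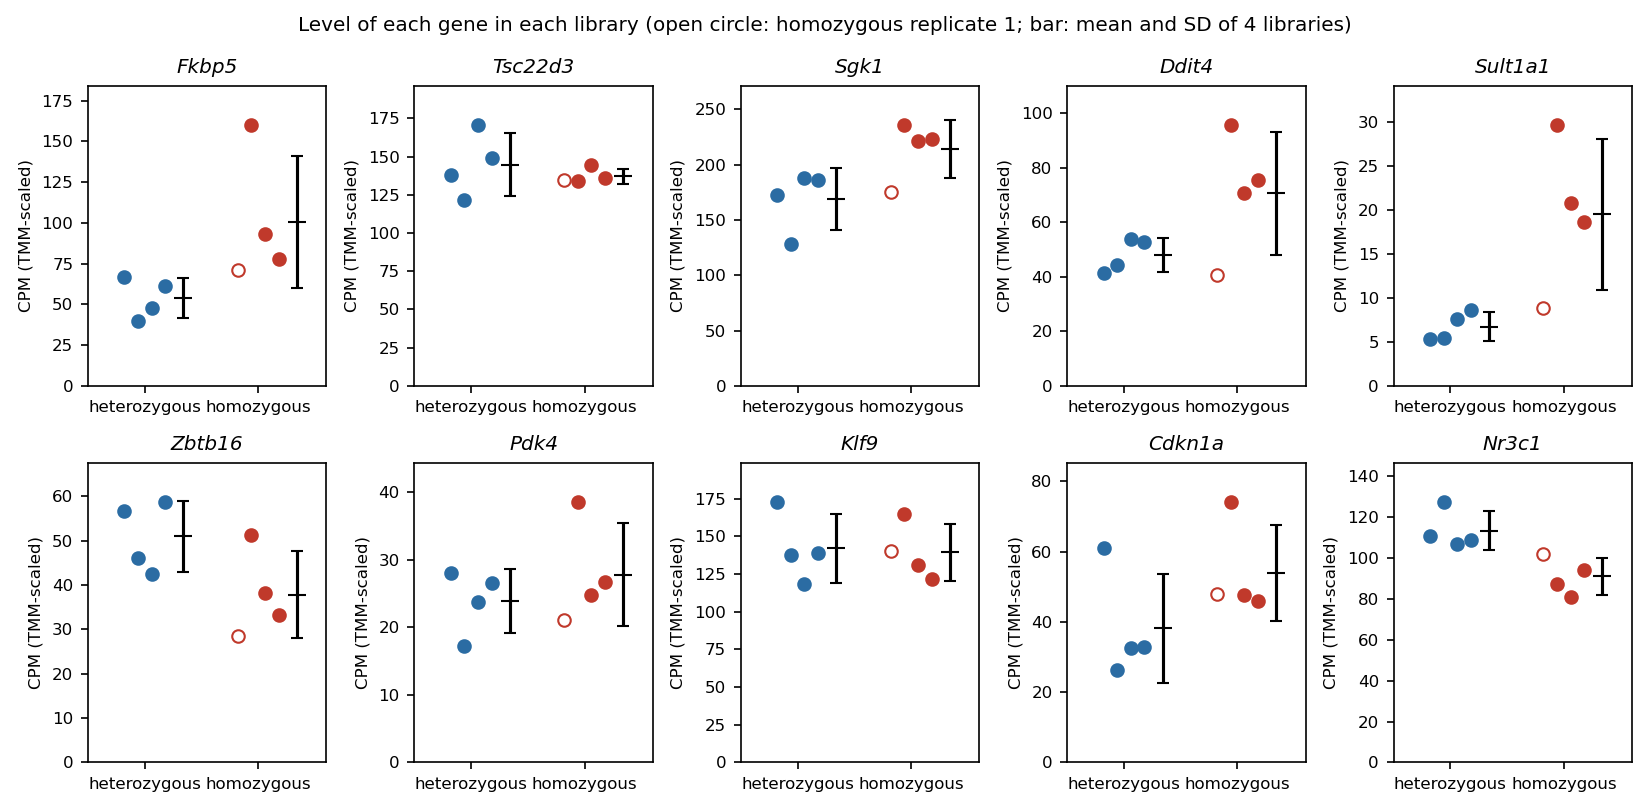
CPM of each gene in each library by genotype label, with homozygous replicate 1 as an open circle and the black bar giving the mean and SD of the 4 libraries. Fkbp5 and Sult1a1 stand above and Nr3c1 below all heterozygous libraries in all 4 homozygous ones, while Tsc22d3 and Klf9 overlap.

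Nr3c1, the glucocorticoid receptor, was at 111, 128, 107 and 109 CPM in the heterozygous libraries and at 102, 87.5, 81.1 and 94.0 CPM in the homozygous ones. Every homozygous library, replicate 1 included, lay below every heterozygous one. Its log2 fold change was -0.31 (SE 0.085, edgeR adjusted p = 0.143), and -0.37 without homozygous replicate 1 (SE 0.084, edgeR adjusted p = 0.0623). It passed with DESeq2 in both sets, at an adjusted p of 0.0249 with 8 libraries and 0.00211 with 7. Over all alternatives with 8 libraries its log2 fold change lay between -0.48 and -0.25, with adjusted p from 0.0249 to 0.321. Nr3c1 was the only member of the 10 that DESeq2 called lower.

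Around the receptor, a list of 20 chaperones, cofactors, steroid enzymes and carriers gave 19 tested genes. Only 2 of the 19 had a log2 fold change above 0, the median was -0.09, and edgeR called none in either set of libraries. With 8 libraries none lay above and 4 lay below at an unadjusted p of 0.05, against 1299 and 1470 of all 16511 genes. Hsd11b1, the enzyme that regenerates active corticosterone within cells, was at 21.3, 26.0, 35.2 and 21.7 CPM in the heterozygous and 18.4, 15.3, 17.6 and 14.1 CPM in the homozygous libraries. Its groups did not overlap, and its log2 fold change of -0.67 (SE 0.162) did not pass edgeR's test (adjusted p = 0.132, and 0.0844 without homozygous replicate 1). Fkbp4, the co-chaperone that favours transport of the receptor to the nucleus, had a log2 fold change of -0.29 (SE 0.095, edgeR adjusted p = 0.183). Over the 7 libraries its value was -0.36 (SE 0.095, edgeR adjusted p = 0.0903). Crhr1, a receptor for corticotropin-releasing hormone, had a value of -0.38 that did not pass (edgeR adjusted p = 0.148), and of -0.37 over the 7 libraries. Abcb1a, a vessel wall carrier that exports steroids, had -0.58, which did not pass (edgeR adjusted p = 0.226), and -0.48 over the 7 libraries. Among alternatives, Hsd11b1 passed in 1 of 19 with 8 libraries and 2 of 17 with 7. Fkbp4 passed in 0 and 3 of these, Crhr1 in 1 and 1, and Abcb1a in 0 and 0. Nr3c2, the mineralocorticoid receptor, which also binds corticosterone, lay at 54.5 to 67.1 CPM in heterozygous and 46.2 to 65.3 CPM in homozygous libraries.

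Fkbp5 encodes a co-chaperone that lowers the hormone affinity of the receptor and is itself induced by it, a feedback that makes it a common readout of the hormone. It was at 66.7, 39.7, 48.0 and 61.2 CPM in the heterozygous libraries and at 70.8, 159.9, 93.4 and 77.8 CPM in the homozygous ones. The 4 homozygous libraries were the highest of the 8, with replicate 2 well above the others and replicate 1 just above the heterozygous range. The mean was 1.86 times that of the heterozygous group. The gene lies at chr17:28399094-28517527 on the minus strand (GRCm38), and its RefSeq window held no hexamer. The fitted log2 fold change was 0.90 (SE 0.285, edgeR adjusted p = 0.200), and 1.03 without homozygous replicate 1 (SE 0.282, edgeR adjusted p = 0.121). It passed only with DESeq2 over the 7 libraries (adjusted p = 0.0373, among 0.0373 to 0.263 over its alternatives with 7), and without homozygous replicate 2 it was 0.58 over the other 7. In TPM the groups overlapped, at 21.5 to 41.9 for heterozygous and 38.3 to 84.0 for homozygous libraries. In the authors' deposited table Fkbp5 has a log2 fold change of 1.07 and a false discovery rate of 0.00311. That table has 185 genes, 75 higher and 110 lower, and of the 10 members it holds Fkbp5 and Sult1a1. Its libraries are not stated, and the gene tables deposited with it leave out heterozygous replicate 1 and homozygous replicate 1.

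Tsc22d3 was at 138.0, 121.6, 170.6 and 148.9 CPM in the heterozygous libraries and at 134.4, 133.9, 144.3 and 136.3 CPM in the homozygous ones. All homozygous libraries lay inside the heterozygous range. Its log2 fold change was -0.08 (SE 0.092, edgeR adjusted p = 0.691), with the same sign without homozygous replicate 1, at -0.07, and above 0 only without heterozygous replicate 3, at 0.010. Klf9, which the receptor induces in neurons and glia, was at 173, 138, 118 and 139 CPM and at 140, 165, 131 and 121 CPM in the same order of groups. Again the groups overlapped throughout, with a log2 fold change of -0.03 in both sets (SE 0.123, edgeR adjusted p = 0.932 with 8 libraries). These are 2 of the genes most used as readouts of the hormone, and the difference of each was smaller than its SE.

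Sgk1 was at 173, 128, 188 and 186 CPM in the heterozygous libraries and at 176, 236, 222 and 223 CPM in the homozygous ones. Homozygous replicates 2 to 4 lay above every heterozygous library, and replicate 1 lay inside their range. For Sgk1 the log2 fold change was 0.34 (SE 0.129, edgeR adjusted p = 0.235), and 0.43 without homozygous replicate 1 (SE 0.121, edgeR adjusted p = 0.109). It passed only with DESeq2 over the 7 libraries (adjusted p = 0.0204, where 2.60% of genes were called higher and 3.94% lower). Its relative Sgk3, another kinase of the family, was at 14.6, 12.7, 13.2 and 16.4 CPM and at 19.9, 46.2, 21.5 and 22.9 CPM. All 4 homozygous libraries were above the heterozygous ones. The log2 fold change of 0.95 (SE 0.269) did not pass (edgeR adjusted p = 0.162, and 0.0931 without homozygous replicate 1). It passed in 1 of 19 alternatives with 8 libraries and 1 of 17 with 7. In the authors' deposited table Sgk3 has a log2 fold change of 1.02 and a false discovery rate of 0.0117.

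Sult1a1, a phenol sulfotransferase that adds sulfate to small phenols, was at 5.29, 5.42, 7.62 and 8.61 CPM in the heterozygous libraries. It was at 8.83, 29.7, 20.8 and 18.7 CPM in the homozygous ones. Homozygous replicate 1 lay just above the highest heterozygous library, and the other 3 lay far above it. The group means were 6.73 ± 1.65 and 19.5 ± 8.55 CPM (SD, n = 4), a 2.90-fold ratio, and the ratio was 3.42-fold without homozygous replicate 1. Its gene lies at chr7:126672865-126676432 on the minus strand (GRCm38). The log2 fold changes were 1.53 (SE 0.345) and 1.77 (SE 0.215). With 8 libraries 0.224% of genes tested had a higher one, which restates the choice of Sult1a1 as raised and tests nothing.

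Ddit4, which restrains the growth kinase mTOR under stress, was at 41.3, 44.1, 53.8 and 52.9 CPM in the heterozygous libraries and at 40.8, 95.6, 70.8 and 75.3 CPM in the homozygous ones. Homozygous replicate 1 was the lowest of the 8 libraries and replicates 2 to 4 were the 3 highest. For Ddit4 the log2 fold change was 0.55 (SE 0.230) with 8 libraries and 0.74 (SE 0.126) with 7. Its gene, of 1 annotated transcript, lies at chr10:59949669-59951834 on the minus strand (GRCm38).

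**Figure D3:**
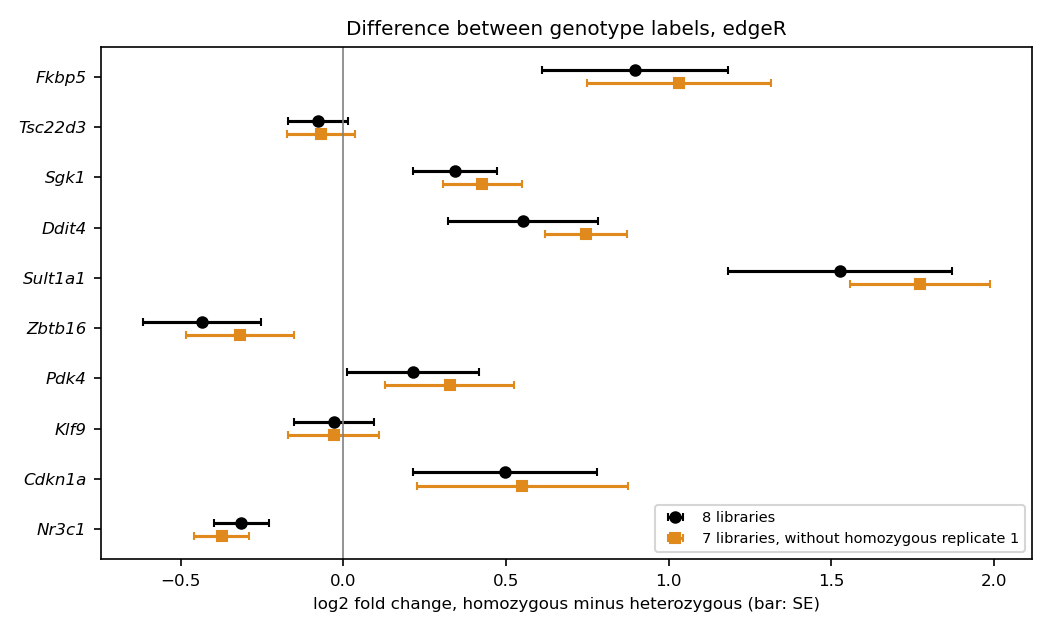
Log2 fold change of each gene, homozygous minus heterozygous, with its SE as a bar, for the 8 libraries (circles) and for the 7 without homozygous replicate 1 (squares). Sult1a1 and Fkbp5 lie farthest to the right at 1.53 and 0.90 with 8 libraries, and Zbtb16 and Nr3c1 lie on the left at -0.43 and -0.31.

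Cdkn1a, a cyclin-dependent kinase inhibitor that p53 and the glucocorticoid receptor both induce, was at 61.0, 26.3, 32.4 and 32.8 CPM in the heterozygous libraries. It was at 47.9, 74.2, 47.6 and 46.0 CPM in the homozygous ones. Heterozygous replicate 1 stood inside the homozygous range while the other 3 heterozygous libraries lay below it. Its log2 fold change of 0.50 (SE 0.283, edgeR adjusted p = 0.409) became 0.55 without homozygous replicate 1, 0.82 without heterozygous replicate 1 and 0.31 without homozygous replicate 2. Among 11 other p53 target genes, 5 had a log2 fold change above 0, the median was -0.02 (-0.03 over the 7 libraries), and edgeR called none in either set of libraries. Eda2r, Aen and Zmat3 of that list had values of -0.55, -0.15 and -0.12 and Psrc1 of 0.32, with edgeR adjusted p from 0.259 to 0.354.

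Pdk4, a kinase that shuts off pyruvate dehydrogenase in fasting, was at 28.1, 17.3, 23.7 and 26.5 CPM in the heterozygous libraries and at 21.1, 38.6, 24.8 and 26.7 CPM in the homozygous ones. The groups overlapped apart from homozygous replicate 2. The log2 fold change was 0.21 (SE 0.203, edgeR adjusted p = 0.620), 0.33 without homozygous replicate 1 and 0.02 without homozygous replicate 2. Its relative Pdk2, the broadly expressed isoform, was at 93.4 to 104 CPM in heterozygous and 108 to 127 CPM in homozygous libraries, which did not overlap. The log2 fold change of Pdk2 was 0.23 (SE 0.071) and did not pass (edgeR adjusted p = 0.176, and 0.101 without homozygous replicate 1). Pdk2 passed in 0 of 19 alternatives with 8 libraries and 1 of 17 with 7.

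Zbtb16, also called PLZF, a zinc finger repressor, was at 56.7, 46.0, 42.4 and 58.8 CPM in the heterozygous libraries and at 28.5, 51.2, 38.3 and 33.3 CPM in the homozygous ones. Homozygous replicates 1, 3 and 4 lay below the heterozygous range and replicate 2 inside it. The log2 fold change was -0.43 (SE 0.181, edgeR adjusted p = 0.274), and -0.32 without homozygous replicate 1 (SE 0.167, edgeR adjusted p = 0.330). Zbtb16 and Nr3c1 were the members farthest below 0, and Zbtb16 kept that sign under every alternative tried.

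Of 21 relatives of the members listed, Fkbp4 and Nr3c2 among them, 17 were tested, 10 had a log2 fold change above 0, and the median was 0.011. The 1 relative that edgeR called, over the 7 libraries, was Tsc22d4, a relative of Tsc22d3. It was at 57.9 to 63.6 CPM in the heterozygous libraries and at 64.5, 75.7, 80.9 and 92.3 CPM in the homozygous ones. Its log2 fold change was 0.34 with 8 libraries (edgeR adjusted p = 0.149) and 0.42 with 7 (SE 0.078, edgeR adjusted p = 0.0406), and the call was lost in each of the 7 fits that left out a further library.

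A list of 30 other genes known to be induced by glucocorticoids was read in the same way. Like the other lists, it was chosen with earlier results of these data known. Its counts beside the shares of all genes therefore describe the list and test nothing. With 8 libraries 26 of the 30 had a log2 fold change above 0, and the median was 0.29. edgeR called none of the 30, though 15 lay above and 1 below at an unadjusted p of 0.05 (1299 and 1470 of all 16511 genes), and DESeq2 called 6 higher (1.64% of all genes). In 4 of the 30 all homozygous libraries stood above the heterozygous range, and over the 7 libraries this held for 15 (4.61% and 9.73% of all genes). Without homozygous replicate 1 the median was 0.37 and edgeR called 5 higher and none lower, where it called 0.550% and 0.670% of all genes. The 5 were Mt1, Mt2, Hif3a, Rhou and Cebpd.

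The metallothionein gene Mt1, which encodes a small protein that binds zinc and copper, was the one whose call held most widely. It was at 130, 120, 135 and 135 CPM in the heterozygous libraries and at 126, 248, 249 and 281 CPM in the homozygous ones. Replicates 2 to 4 were close together, and replicate 1 stood at the heterozygous level. Over the 7 libraries its log2 fold change was 1.0 (SE 0.074, edgeR adjusted p = 0.000796), and it passed in all 7 fits that left out a further library. Mt2, its neighbour of like function, had 0.64 (SE 0.117, edgeR adjusted p = 0.0406), and Rhou, a small GTPase, had 0.38 (SE 0.069, edgeR adjusted p = 0.0406). Hif3a, a member of the hypoxia-inducible factor family, had 0.96 (SE 0.173, edgeR adjusted p = 0.0401), and the transcription factor gene Cebpd had 1.13 (SE 0.188, edgeR adjusted p = 0.0334). Cebpd was low throughout, at 1.07 to 1.5 CPM in the heterozygous libraries and 2.66 to 3.20 CPM in homozygous replicates 2 to 4. With 8 libraries Mt1, Mt2, Rhou, Hif3a and Cebpd had log2 fold changes of 0.80, 0.47, 0.29, 0.79 and 0.87, and edgeR adjusted p from 0.149 to 0.267. The 7-library calls of Mt2, Hif3a, Rhou and Cebpd were lost in 7, 6, 6 and 5 of those 7 fits, and the count over the list ran from 1 to 9, the 9 without homozygous replicate 4.

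Plin4, a protein that coats lipid droplets, was named after its values were seen, as the gene of the 30 with the largest log2 fold change. It was at 22.1, 4.92, 6.93 and 14.6 CPM in the heterozygous libraries and at 34, 96.0, 60.4 and 35.8 CPM in the homozygous ones. The groups did not overlap, homozygous replicate 1 included, but the heterozygous libraries differed more than 4-fold among themselves. The log2 fold change of 2.21 (SE 0.578) did not pass (edgeR adjusted p = 0.162, and 0.128 without homozygous replicate 1). In the authors' deposited table Plin4 has a log2 fold change of 2.76.

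**Figure D4:**
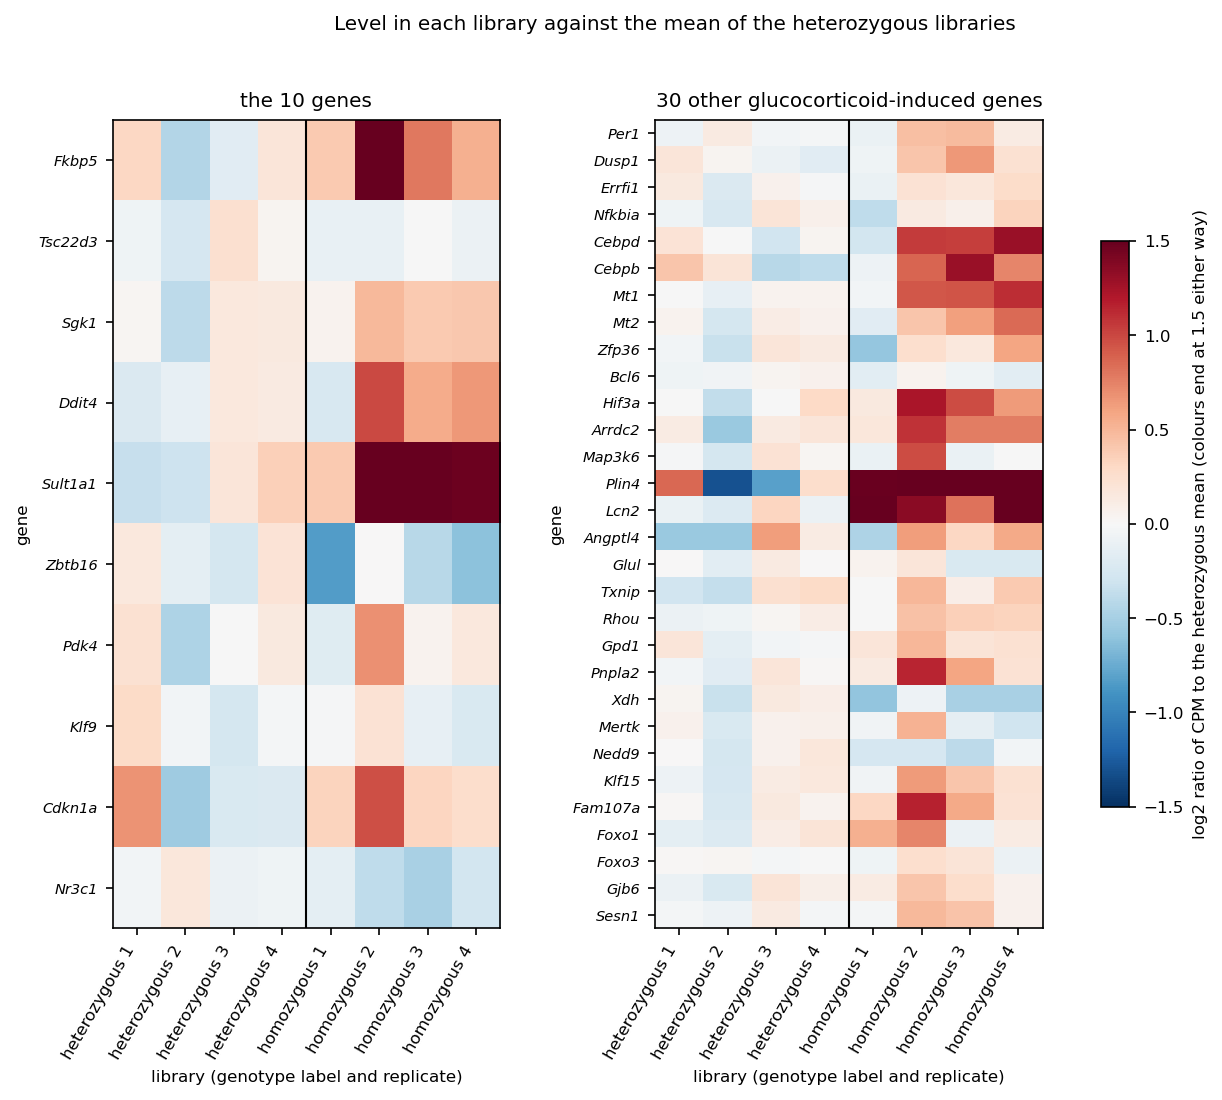
Log2 ratio of CPM to the mean of the 4 heterozygous libraries for the 10 genes (left) and 30 other glucocorticoid-induced genes (right), with 1 column per library and red for higher, the colours ending at 1.5. Homozygous replicate 2 is the highest library for 17 of the 30 other genes and heterozygous replicate 2 the lowest for 16.

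Libraries of one label also differed among themselves over these genes. Among the 9 members other than Nr3c1, homozygous replicate 2 was the highest library for 6, Sult1a1 and Ddit4 among them, and heterozygous replicate 2 was the lowest for 5. The same libraries stood out in the 30 other induced genes, where homozygous replicate 2 was the highest for 17 and heterozygous replicate 2 the lowest for 16. Homozygous replicate 2 lay above the whole heterozygous range for 26 of the 30, replicate 3 for 19, replicate 4 for 18 and replicate 1 for 5. For single libraries the shares over all genes were not counted, so these counts describe the lists alone. The median log2 ratio to the heterozygous mean over the 9 members was 0.69, 0.32 and 0.27 in homozygous replicates 2, 3 and 4 and -0.02 in replicate 1. In heterozygous replicates 1 to 4 it was 0.15, -0.31, -0.011 and 0.14. The 9 include Sult1a1 and Ddit4, chosen as raised, which lift the medians of homozygous replicates 2, 3 and 4.

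Among 15 clock genes, which cycle over the day as corticosterone does, 8 had a log2 fold change above 0, the median was 0.0053 (-0.042 over the 7 libraries), and edgeR called none in either set. Per2, a repressor of the clock, was at 60, 47.9, 39.9 and 40.5 CPM in heterozygous and 37.0, 37.2, 33.7 and 32.0 CPM in homozygous libraries. Its groups did not overlap, and its log2 fold change of -0.43 (SE 0.125) did not pass edgeR's test (adjusted p = 0.156, and 0.135 over the 7 libraries), though it passed in 1 of 19 alternatives with 8 libraries and 2 of 17 with 7. Bhlhe41, Clock and Npas2 had values of -0.15, -0.19 and 0.22, with edgeR adjusted p from 0.320 to 0.479. In 2 other clock genes heterozygous replicate 1 and homozygous replicate 1 were the 2 lowest libraries, unlike in Per2, where heterozygous replicate 1 was the highest. Ciart, named after its values were seen, was at 7.75 CPM in heterozygous replicate 1 and 7.97 CPM in homozygous replicate 1, and at 11.3 to 22.2 CPM in the other 6. Dbp, named in the same way, was at 25.5 and 31.2 CPM in those 2 libraries and at 38.0 to 61.0 CPM in the others. The part of the hour of collection in the member values was not tested.

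Markers of the cells that could carry these genes were read beside them. In a whole piece of tissue, fewer cells of a type and less RNA per cell cannot be told apart. All 10 endothelial markers had a log2 fold change below 0, with a median of -0.44, and their summed level was 200.9 to 276.8 CPM in heterozygous and 135.9 to 227.8 CPM in homozygous libraries. The 1 that edgeR called over the 7 libraries was Tie1, a receptor of vessel lining cells, at -1.23 (SE 0.236, adjusted p = 0.0483). The 8 astrocyte markers summed to 4620 to 5503 CPM and 4374 to 5374 CPM, with a median of -0.14, and edgeR called none in either set. Among them Gfap, named after its values were seen, was at 316 to 417 CPM in heterozygous libraries and at 303, 594, 567 and 1352 CPM in homozygous ones, and the authors' deposited table gives it a log2 fold change of 1.14 and a false discovery rate of 0.0193. The 9 oligodendrocyte markers summed to 10032 to 11481 CPM and 7907 to 15492 CPM, with a median of -0.26, and edgeR called none in either set. The 8 microglia markers summed to 313 to 380 CPM and 300.2 to 393 CPM. Over the 7 libraries edgeR called C1qa, a complement gene, higher and Tmem119 lower among them. The 8 Schwann cell markers, of which 7 were tested, summed to 163 to 618 CPM in heterozygous and 58.0 to 103 CPM in homozygous libraries, replicate 1 included. Their median was -3.14 with 8 libraries and -2.92 with 7, the farthest from 0 of these marker lists. In 5 of the 7 every homozygous library lay below every heterozygous one (4.67% of all genes). Over the 7 libraries edgeR called 1 of them lower (0.670% of all genes). The 7 markers of meningeal fibroblasts had a median of -1.26, with sums of 93.6 to 207 CPM and 83.8 to 138 CPM. Among these, too, edgeR called 1 lower over the 7 libraries. All 6 blood cell markers lay above 0 with 8 libraries, with a median of 0.84. No marker of these lists was at 0 in all libraries, and the part of cell content in the member values was not tested.

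RSEM also gives each gene a length averaged over its transcripts by their abundance, which was not used to choose the members. This length varied between libraries for 6 of the 10 and was fixed for 4. Fkbp5 varied the most, from 2864 to 3390 bases, with means of 3016 ± 204 bases in the heterozygous and 3227 ± 195 bases in the homozygous libraries (SD, n = 4). The difference gave p = 0.200 in a two-sided exact permutation test, where the smallest p for 4 against 4 is 0.0286. Over the 6 genes the exact permutation p lay between 0.171 and 0.83, and after Benjamini-Hochberg adjustment between 0.600 and 0.83. No difference in length passed the test. After adjustment even the smallest p would pass only if several of the 6 genes reached it, so the test had little power.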

How the data were processed

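The submitters' processing notes name cutadapt, STAR, RSEM, Picard and the build mm10, without versions. The authors deposited RSEM expected counts, TPM, FPKM and gene lengths for each library, per the file headers. The authors' deposited table of edgeR results gives log2 fold changes, p-values and false discovery rates, with no settings in the file. Other values, per the file headers of a deposited sequencing report, were the RNA integrity number and the percent of ribosomal bases.

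Expected counts were rounded. Groups follow the genotype label, and replicates are numbered as deposited. Each title carries its own animal number, but nothing says how animals were sampled, so p-values measure the spread between these samples. Genes with counts enough by filterByExpr (16511 with 8 libraries, 16560 with 7) were tested with edgeR 4.0.16 in R 4.3.3, by a quasi-likelihood fit (robust, TMM-scaled), with p adjusted by Benjamini-Hochberg over all of them, at 0.05. Each SE belongs to its fitted log2 fold change, and CPM are TMM-scaled. The procedure was tested on simulated counts. Reads that match close relatives, such as Mt1 and Mt2, are shared out by RSEM, which makes both less certain. Gene symbols came from the count table, and 47224 of 47643 identifiers matched GENCODE M21. Permutation tests used scipy 1.17.1, tables pandas 2.3.3 and figures matplotlib 3.10.9, in Python 3.11.15. Sequences are from RefSeq on GRCm38.p6.

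The members and all 22 gene lists were chosen with earlier results of these data known, and 1 listed gene is not reported here. Named were the members, Arf1, and from each list described the genes past the threshold with 8 or 7 libraries, filled up to 4 by the smallest p. Nr3c2 and genes so marked in the text were named outside this rule. Alternatives were median-of-ratios factors, library size only, DESeq2 1.42.0, limma-voom and limma on log2(TPM + 1) (limma 3.58.1), no filter, a minimum of 1 CPM in 4 libraries, a fit that was not robust, Xist level as a covariate, an adjusted p of 0.1, each library left out, and, added after seeing the data, the 6 libraries of the authors' gene tables.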

Additional observations from a re-analysis of the deposited data

Results flagged for a closer look

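In 8 cases 1 library stood far from the other 3 of its label, by the gap to its nearest neighbour over the range of the group; 106 groups of 4 were checked, and chance alone flags about 1 in 20. Among the members this was Cdkn1a in homozygous replicate 2, at 74.2 CPM. Homozygous replicate 2 also stood apart for Sgk3, at 46.2 CPM. Homozygous replicate 1 stood apart for Arf1, at 307 CPM, and for the p53 target Eda2r, at 0.810 CPM. Among heterozygous libraries, replicate 2 stood apart for Mt2 at 90.3 CPM, replicate 1 for the stress factor Atf3 at 3.74 CPM, and replicate 4 for Crhr1 at 15.9 CPM and for the mitophagy gene Bnip3 at 95.5 CPM.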

How the results depend on the processing

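Signs of the members held under every alternative except for Tsc22d3 and Klf9. Leaving out 1 library, Tsc22d3 ran from -0.15 to 0.010 with 8 libraries and from -0.14 to 0.020 with 7, and Klf9 from -0.12 to 0.081 and from -0.17 to 0.079; with the 6 libraries of the authors' gene tables Klf9 was 0.079. The cause was not tested. Genes called higher and lower with 8 libraries (0 and 0) were 21 and 50 at an adjusted p of 0.1, 19 and 44 with no filter, 270 and 409 with DESeq2, 72 and 160 with the 6 libraries, and 1 lower on log2(TPM + 1); leaving out 1 library gave 0 to 91 higher and 0 to 111 lower, the largest without homozygous replicate 1. With 7 libraries (91 and 111) they were 367 and 467 at 0.1, 157 and 287 with no filter, 431 and 652 with DESeq2, 55 and 54 with limma-voom, and 33 and 30 with the Xist covariate. There were 60 higher and 150 lower with library size only, 68 and 69 without the robust fit, and 90 and 2065 on log2(TPM + 1), a scale that shifts all genes; leaving out 1 library gave 3 to 139 higher and 3 to 263 lower. Counts of members called include Sult1a1 and Ddit4, chosen as raised, so nothing is read from those called higher. Apart from these 2, only Fkbp5 and Sgk1 were called higher, both with DESeq2 over the 7 libraries. Members called with 8 libraries (0) were 1 higher and 1 lower with DESeq2 and 2 higher with the 6 libraries, and 0 to 2 higher leaving out 1 library. With 7 libraries (2 higher) they were 1 with library size only, 4 with DESeq2 and 1 with the Xist covariate, and 0 to 2 leaving out 1 library; 1 was called lower at 0.1, with no filter, with DESeq2 and on log2(TPM + 1), which was Nr3c1. Of the 30 other induced genes, those called higher with 8 libraries (0) were 1 at 0.1, 6 with DESeq2, 2 with the 6 libraries and 0 to 5 leaving out 1 library. With 7 libraries (5) they were 10 at 0.1, 3 with library size only, 15 with DESeq2, 2 with limma-voom, 1 with the Xist covariate and 1 to 9 leaving out 1 library. On log2(TPM + 1) the medians over 7 libraries were 0.15 for the members, Sult1a1 and Ddit4 included, and 0.13 for the 30. No length difference passed under any alternative, though 3 against 4 libraries leaves few permutations. No paired analysis was possible because the labels pair no animals and the replicates are numbered only as deposited. Genes near 1 CPM, such as Cebpd, rest on few counts.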

Other observations

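Immediate early genes, which neurons and vessels switch on within minutes of a stimulus, were read beside the members. Of 10, 8 had a log2 fold change above 0, with a median of 0.31 over 8 libraries and 0.36 over 7, and edgeR called none in either set. With 8 libraries 4 lay above and none below at an unadjusted p of 0.05, against 1299 and 1470 of all 16511 genes. Junb, a subunit of the AP-1 factor, was at 24.4, 28.1, 18.3 and 20.5 CPM in the heterozygous libraries and at 23.6, 38.4, 47.9 and 32.8 CPM in the homozygous ones, with replicates 2 to 4 above the heterozygous range. Its log2 fold change was 0.64 with 8 libraries (SE 0.215, edgeR adjusted p = 0.205) and 0.80 with 7 (SE 0.167, edgeR adjusted p = 0.0601). Fos, its partner, was at 33.7 to 46.5 CPM in the heterozygous libraries and at 44.9, 55.5, 57.5 and 54.0 CPM in the homozygous ones (edgeR adjusted p = 0.148 with 8 libraries and 0.0634 with 7). Egr2 and Nr4a1 had log2 fold changes of 0.33 and 0.36 with 8 libraries (edgeR adjusted p = 0.166 and 0.203).

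In 3 lists of other responses that share targets with the members, edgeR called no gene with 8 or with 7 libraries; some passed in alternatives, among them Slc7a11 in 2 of 19 with 8 libraries and 4 of 17 with 7, and Atf3 in 2 and 1. Of 10 genes of the integrated stress response, which also induces Ddit4, 8 lay above 0 with a median of 0.15 (0.095 over the 7 libraries). Slc7a11, a cystine carrier, was at 31.6 to 47.8 CPM in heterozygous and 20.5 to 31.2 CPM in homozygous libraries, and Atf3, a stress-induced factor, at 3.74, 1.06, 1.45 and 1.36 CPM and at 2.69, 3.39, 3.67 and 4.73 CPM. The authors' deposited table gives Atf3 a log2 fold change of 1.52. Psat1 and Sesn2 had values of 0.13 and 0.16. Of 9 genes induced by hypoxia 4 lay above 0, with a median of -0.055 (-0.19 over the 7 libraries), and Bnip3, Ankrd37, Ndrg1 and Slc2a1 had values of 0.18, 0.53, -0.35 and -0.24. Of 9 targets of the PPAR receptors, which also induce Pdk4, 3 lay above 0, with a median of -0.028 (-0.041 over the 7 libraries), and Cpt1a, Acadm, Ucp3 and Acot1 had values of -0.32, -0.13, -0.29 and 0.23.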
